A study of Solanum tuberosum with 11 samples.

Results

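The comparison described here is that of NG 1-Day with Controls, the first day after dormant potato minitubers were injected with the compound NG. It has 35091 lines, 1 for each identifier in the deposited table, and each is called a transcript below. Of these, 35088 remained after 3 lines marked HIDATA (too abundant for the authors' software) were left out. The change of a transcript was taken as log2((NG 1-Day level + 1)/(Controls level + 1)), called the +1 scale below. A pseudocount of 1 keeps transcripts near 0 from showing large ratios, and it understates their change.

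Tissue was a thin periderm disc that held the apical bud of greenhouse minitubers of potato (Solanum tuberosum), cultivar Atlantic. All tubers were dormant and received 5 µl of DMSO, the solvent. The control group (3 libraries in the labels, zero time) had DMSO alone, and the day 1 group (3 libraries) had DMSO with 10 µg of 1-(alpha-ethylbenzy)-3-nitroquanidine, NG, in the labels' spelling, and was harvested after 1 day. No DMSO library taken on day 1 is among the labels, so the effect of the compound, of the elapsed day and of any delayed response to injection cannot be told apart. In a disc of mixed cells, fewer cells of a type and less RNA per cell cannot be told apart either, and no marker of periderm or meristem could be looked up. The authors had combined the libraries into 1 level per condition, so the spread between tubers is unknown, depth is unknown, and errors below are the standard errors of the authors' own test. The sources used here do not say how many libraries stand behind a level.

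A potato tuber is a swollen stem, and its buds do not grow for a period after harvest even where conditions favour growth. Cytokinins, hormones that act through membrane histidine kinases and a relay of phosphate to response regulators in the nucleus, are known to end that dormancy. Nitroguanidines of this kind are known as synthetic cytokinins that bring dormant minitubers to sprout. The comparison addresses which transcripts had changed 1 day after exposure. The table pairs its identifiers with no gene names, and 0 of them were found among the 32873 genes listed for assembly SolTub_3.0. Transcripts are therefore given by position, as the table writes it, and by level, with no function.

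One property of the control column bears on every value that follows. The Controls level lay between those of NG 1-Day and NG 7-Days for 63.1% of the 10638 transcripts above 5 in all 4 conditions of the table. Over these, Controls was off the average of NG 1-Day and NG 7-Days by a median of 5.64%, off NG 1-Day alone by 7.91% and off NG 7-Days alone by 11.6%. Averaging by itself tends to bring a value closer to Controls than either condition alone, so the smaller distance is given as a description. Where NG 7-Days was at least 2-fold above NG 1-Day (889 transcripts at a mean of at least 5 in these conditions), the Controls level stood at a median of 35.9% of the way from NG 1-Day to NG 7-Days. The interquartile range was 29.6% to 42.9%, and 99.6% of these transcripts had Controls in between. Where NG 7-Days was at least 2-fold below NG 1-Day (347 transcripts), the place of Controls was far more scattered, with a median of 49.1% and an interquartile range of 27.3% to 73.9%. Of these, 87.6% had Controls in between. Both sets were chosen for a wide gap between NG 1-Day and NG 7-Days, which by itself favours a Controls level in between. How far averaging and this choice account for the values above was not tested. Wherever Controls lies in between, a transcript below Controls on day 1 is by arithmetic above it in NG 7-Days. Transcripts share the libraries behind each condition and are not independent of each other, and the part of this pattern in the results below was not tested. The sources used here do not say which libraries make up the Controls column. Whether it holds zero-time DMSO libraries alone could not be checked, and each change below is a change against that column as deposited.

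**Figure D1:**
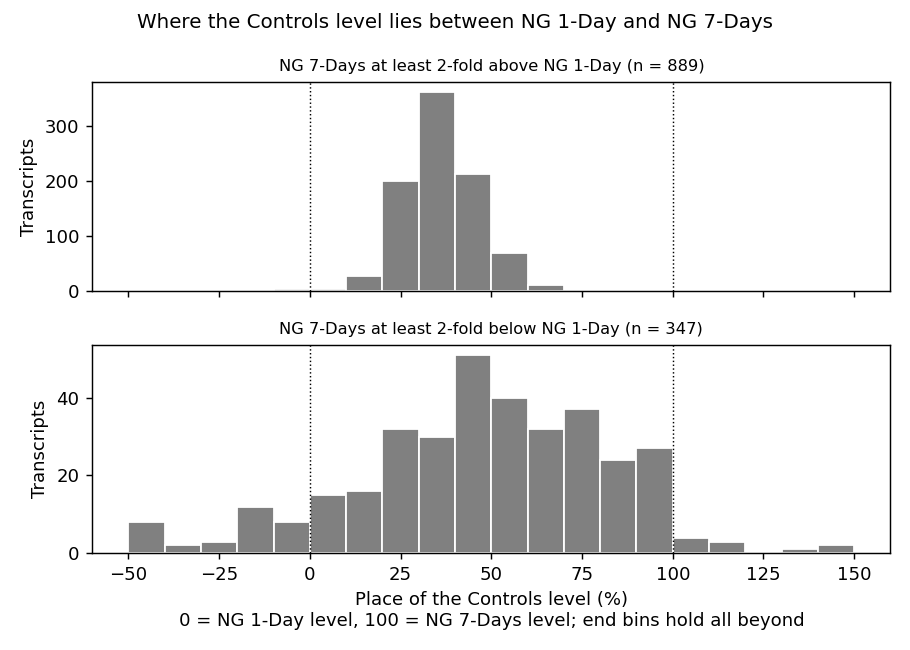
Place of the Controls level on the way from the NG 1-Day level (0%) to the NG 7-Days level (100%), as numbers of transcripts in bins of 10 percentage points. Among the 889 transcripts higher in NG 7-Days the values crowd around a median of 35.9%; among the 347 lower ones they spread around 49.1%.

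Most transcripts differed little between Controls and NG 1-Day. Of the 35088, 9559 were listed at 0 in both conditions and 25529 had a level above 0 in at least 1 of them. Over the latter the median change was -0.02 on the +1 scale, the interquartile range was -0.14 to 0.09, and 55.3% had a lower level on day 1. The median ratio of NG 1-Day to Controls was 1.00 over the 11212 transcripts at 5 or more in both. Another 1084 transcripts were listed at 0 in NG 1-Day alone and 649 in Controls alone, but nearly all of them were barely above 0 in the other condition, with medians of 0.0331 and 0.0316. Only 8 of the former and 2 of the latter reached a level of 1.

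The tails were uneven, and more so the larger the change. At 1.5-fold or more on the +1 scale, 1495 transcripts were lower and 460 higher, or 3.25 lower for each higher one. At least 2-fold lower were 637 transcripts, 2.5% of the 25529, and at least 2-fold higher 114, or 0.447%. At 4-fold the numbers were 140 and 14, and at 8-fold 39 and 3. The ratio of lower to higher thus went from 3.25 to 5.59, 10.0 and 13.0. The comparison of NG 7-Days with NG 5-Days, which uses neither of these conditions, leaned the other way, with 777 transcripts at least 2-fold higher and 181 lower in NG 7-Days.

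The authors' test placed nearly all its calls among these low values. In the authors' deposited table, 206 of the 19517 transcripts marked as tested passed an adjusted p under 0.05, which is 1.06%. Of them 201 fell (1.03% of those tested) and 5 rose (0.0256%). At an unadjusted p under 0.05 the authors' deposited table has 583 lower and 51 higher among the same 19517 tested. Together these are a smaller share than the 0.05 that evenly spread p-values would give, so they are given as a description. The 201 that fell had a median Controls level of 4.29, with a range from 0.636 to 158, and a median NG 1-Day level of 0.315. Of the 201, 105 were under 5 in Controls, and 188 were at least 2-fold lower on the +1 scale. Their median standard error was 0.93 on the log2 scale.

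**Figure D2:**
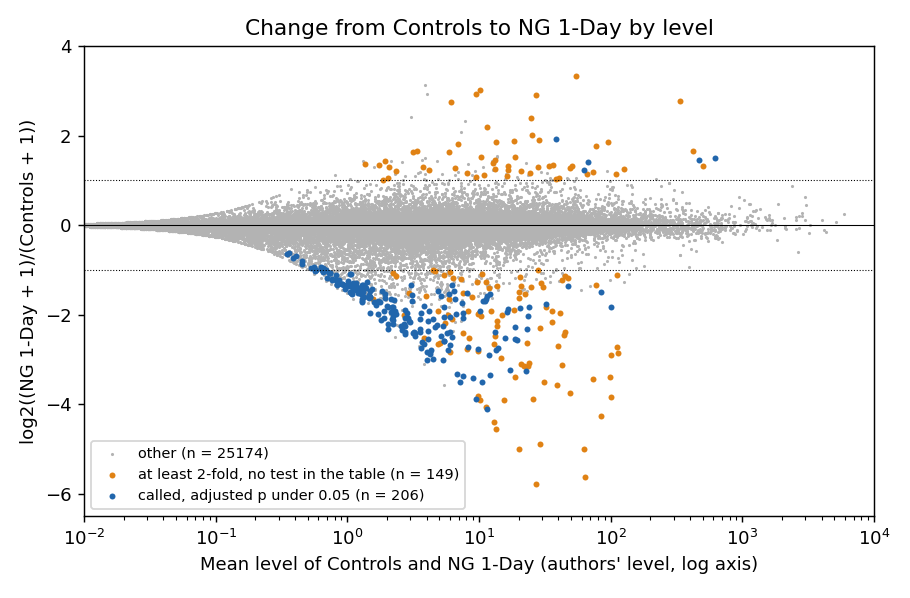
Change on the +1 scale (y axis, log2) against the mean level of Controls and NG 1-Day (x axis, log axis), 1 point a transcript; those below the left limit are not drawn. Blue points are the 206 calls, orange points the 149 transcripts at least 2-fold apart that the table did not test, and dotted lines mark 2-fold; below the 0 line the orange points reach deeper than the blue ones.

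The deepest called fall on the +1 scale was that of PGSC0003DMG400031140 on chromosome 4, 53285510 to 53288554. Its level was 22.7 in Controls, 0.384 on day 1, and then 8.37 (NG 5-Days) and 58.3 (NG 7-Days). NG 1-Day is the lowest of the conditions by far and NG 7-Days the highest. The authors' deposited table gives a log2 fold change of -5.89 (standard error 0.84, adjusted p = 2.76e-10). The next was PGSC0003DMG401031196, also on chromosome 4, 45568941 to 45572943, with a level of 18.5 in Controls, 0.326 on day 1, and then 7.56 (NG 5-Days) and 56.7 (NG 7-Days). The order of the 4 conditions was the same, and the authors' deposited table gives a log2 fold change of -5.83 (standard error 0.99, adjusted p = 3.01e-07).

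The 5 called rises were more abundant and more modest. PGSC0003DMG400004940, a locus of 598 bases on chromosome 4, 58909083 to 58909681, went from 15.4 in Controls to 61.0 in NG 1-Day and was at 7.93 and 12.0 in the later conditions. The authors' deposited table gives it a log2 fold change of 1.98 (standard error 0.63, adjusted p = 0.0331). PGSC0003DMG400030771, on chromosome 6, 37193129 to 37195390, went from 321 to 909, and was at 161 and 280 in the later ones. In the authors' deposited table it has a 2.83-fold higher level, a log2 standard error of 0.42 and an adjusted p of 0.00802. Both were higher on day 1 than in any other condition.

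The other 3 rises were also highest on day 1. A transcript on chromosome 1, 70984590 to 70986530, went from 248 to 680 and was at 81.4 and 149 in NG 5-Days and NG 7-Days. On chromosome 2, 21666864 to 21669538, the level went from 36.6 to 98.7 and was at 35.8 and 30.4 later. On chromosome 5, 42289097 to 42293370, it went from 37.4 to 88.9, with 54.4 and 47.1 later. Their adjusted p-values in the authors' deposited table were 0.00906, 0.0111 and 0.0296. When this comparison was adjusted alone, none of the 5 kept its call and 82 falls did.

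Many of the largest changes carry no call because the table did not test them. Of the 140 transcripts at least 4-fold lower on the +1 scale, 53 were not marked as tested, and of the 14 at least 4-fold higher, 9 were not. Over transcripts of any change, the lack of a test was not confined to low levels. Of the 11762 with a mean level of at least 5, 650 were not marked as tested, for a reason the sources used here do not state. Of the 91 NOTEST lines that were at least 2-fold lower, 61 carry a deposited p under 0.001. When such lines were adjusted along with the rest, 267 of 25497 transcripts had fallen (1.05%) and 20 had risen (0.0784%). Of these, 65 falls and 15 rises were lines marked as not tested. Of the 140 at least 4-fold lower, 75 were called, where 1.03% of all tested transcripts were called as falls. The 91 and the 140 were chosen by their change in this same comparison, which favours small p-values. Their counts are therefore a description and not separate evidence. The share of all NOTEST lines with a deposited p under 0.001 is not given here.

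These untested transcripts show the widest swings in the comparison. At mean levels of 5 to under 20, the largest decrease lay on chromosome 8, 29124120 to 29126305, from 26.9 in Controls to 0.185 in NG 1-Day, with 5.02 and then 89.4 in the later conditions. The largest increase in that class, on chromosome 12, 5287911 to 5289048, was from 1.47 to 18.9, with 2.17 and 6.19 later. At 20 to under 100, a transcript on chromosome 3, 25517019 to 25523413, stood at 54.0 in Controls and is listed at 0 in NG 1-Day on a line marked LOWDATA, and it was at 7.77 and 191 later. The next in that class was on chromosome 9, 51758905 to 51759775, at 126 in Controls, 1.58 on day 1, and 153 and 192 later. Unlike the other decreases in these classes given above, it was already above Controls in NG 5-Days.

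Increases of this kind were fewer but reached high levels. On chromosome 12, 5194227 to 5198043, less than 0.1 Mb from the transcript above, the level went from 9.11 to 100.2 and was at 8.18 and 42.6 later. On chromosome 9, 47542989 to 47543392, a locus of 403 bases went from 85.4 to 585, a 6.85-fold higher level, and then stood at 8.66 in NG 5-Days and 48.8 in NG 7-Days. It is the largest increase at mean levels of 100 to under 500. The largest decrease in that class was on chromosome 3, 44658426 to 44659010, from 189 to 12.3, with 103 and 520 later. At 500 and over, the largest decrease was only from 3184 to 2100 (chromosome 2, 6136839 to 6138302), with an adjusted p of 1.00 in the authors' deposited table, and the largest increase was the chromosome 6 rise given above.

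On the +1 scale, decreases were most frequent at levels of 1 to under 5, while increases had similar shares in the 4 classes from 1 to under 500. Classes were set on the mean of Controls and NG 1-Day. At least 2-fold lower were 5.87% of the 5482 transcripts at 1 to under 5, 2.70% of 6564 at 5 to under 20, 1.63% of 4098 at 20 to under 100 and 0.868% of 922 at 100 to under 500, and 0 of 178 at 500 and over. At least 2-fold higher were 0.602%, 0.609%, 0.756% and 0.651% in the first 4 of these classes, and 2 of the 178 were. With a pseudocount of 5 the order of decreases turned, to 0.474% at 1 to under 5 and 1.44% at 20 to under 100. In the class at 0 to under 1 the +1 scale hides most change, and 63 of 8285 were 2-fold lower and 2 higher. The median change was -0.06 at 1 to under 5, and between -0.01 and 0.02 in each class from 5 upward.

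**Figure D3:**
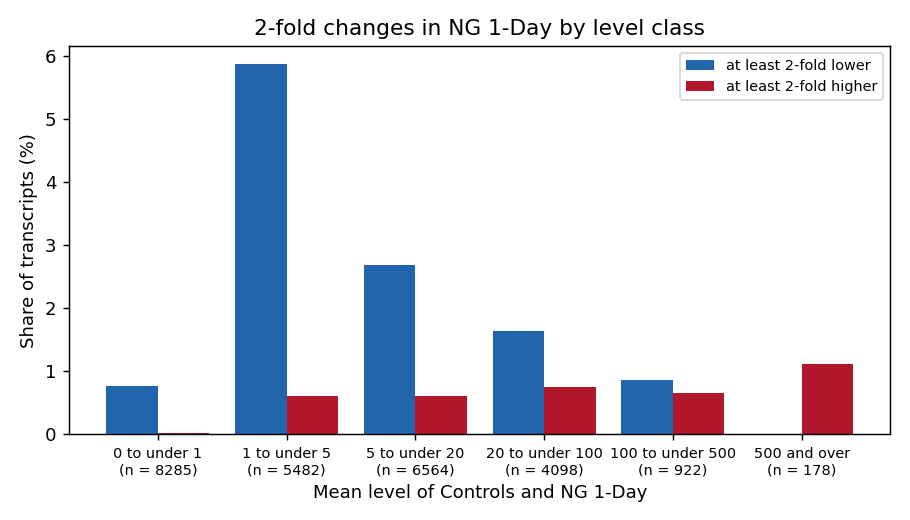
Share of transcripts (y axis, %) at least 2-fold lower (blue) or higher (red) in NG 1-Day than in Controls on the +1 scale, by class of the mean level of both conditions (x axis, n in each class). The blue bars fall from 5.87% at 1 to under 5 to 0.868% at 100 to under 500, while the red bars of those 4 classes stay between 0.602% and 0.756%.

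The order by level depended on which levels set the classes. A transcript that is low in NG 1-Day has a lower mean of the 2 conditions, which moves decreases into the lower classes. With classes set on the mean of NG 5-Days and NG 7-Days, which the comparison does not use, 2-fold lower transcripts were 2.18% at 1 to under 5, 4.49% at 5 to under 20, 3.94% at 20 to under 100 and 4.09% at 100 to under 500. In this order the share at 1 to under 5 is below those of the 3 classes above it, whereas by the mean of the compared conditions it was above them. At 500 and over it was 1 of 178 (0.562%, 95% Wilson interval 0.0992% to 3.11%), and in the class under 1 it was 1 of 7890. The 2-fold higher shares in the 4 classes from 1 to under 500 were 0.753%, 0.424%, 0.477% and 0.341%, and 0 of 178 at 500 and over. Classes by later levels lean as well. The 637 decreased transcripts had a median of 5.69 in Controls but 8.82 in NG 5-Days and 11.6 in NG 7-Days, which moves decreases into higher classes. With classes set on Controls alone, the 2-fold lower shares from 1 to under 500 were 5.26%, 3.56%, 2.26% and 1.87%. That is the order given by the mean of the compared conditions.

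The deposited errors were wide against these changes, most of all at low levels. In the authors' deposited table the median standard error of the log2 fold change was 0.78 at mean levels of 1 to under 5, 0.55 at 5 to under 20, 0.42 at 20 to under 100 and 0.37 at 100 to under 500. The median absolute log2 fold change in the same classes was 0.27, 0.14, 0.10 and 0.10. The change was smaller than 1 standard error for 83.9%, 92.3%, 94.2% and 93.5% of tested transcripts. Differences of this size are not distinguishable from no change by that test, and a lack of calls at high levels does not show that levels were alike.

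Calls were spread over all 12 chromosomes. Among the 17732 transcripts with a level of at least 1 in either condition, which hold all the 2-fold changes (3.59% lower, 0.643% higher), the median change of a chromosome lay between -0.03 on chromosome 7 and -0.01 on chromosome 6. The share at least 2-fold lower went from 2.51% on chromosome 12 (31 transcripts; 95% Wilson interval 1.77% to 3.54%) to 4.22% on chromosome 4 (66; 3.33% to 5.33%), and these intervals, which cover counting error only, overlap. Chromosome 1 had the most called falls, 34 of 2190 tested (1.55%), close to the share on chromosome 7 (1.54%). Chromosomes 8 and 12 had the fewest, 10 each (0.858% and 0.853%). These shares are over tested transcripts with a level of at least 1, so the 1.03% that fell among those tested at any level is not a matching base. With each chromosome divided into 10 equal parts, counted from the end with the lowest coordinates, the ninth held the highest share of 2-fold lower transcripts, at 4.39% of 3439, and the fourth the lowest, at 3.05% of 524. The intervals of these shares, 3.76% to 5.13% and 1.89% to 4.90%, overlap as well. All these intervals treat transcripts as independent, which they are not, and overlap does not show that shares are alike.

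The length of the locus, taken as end minus start of its coordinates, went with both the size and the direction of the change. How much of a locus its RNA covers is not known here. Among transcripts with a level of at least 1, the median change was 0.06 for 1935 loci under 1 kb, -0.01 for 2736 of 1 to under 2 kb, -0.02 for 7094 of 2 to under 5 kb, -0.03 for 5613 of 5 to under 10 kb and -0.04 for 354 of 10 kb and over. A higher level on day 1 was seen for 56.9% of the loci under 1 kb and 40.1% of those of 10 kb and over. Short loci also varied more, with 10th and 90th percentiles of -0.72 and 0.54 under 1 kb against -0.26 and 0.14 at 10 kb and over. Of the 114 transcripts at least 2-fold higher, 45 were under 1 kb, or 39.5%, and of the 637 at least 2-fold lower 134 were, or 21.0%, where 10.9% of all 17732 are that short.

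The same order by length was present in a comparison that shares neither condition. In NG 7-Days against NG 5-Days the median change was 0.08 under 1 kb and -0.06 at 10 kb and over. The order is thus not particular to the first day. Within single level classes, an alternative added after seeing the data, the loci under 1 kb stood above those of 10 kb and over by 0.04 at 1 to under 5, 0.11 at 5 to under 20 and 0.17 at 20 to under 100. The full order did not hold at levels of 1 to under 5. There the 62 loci of 10 kb and over had a median of -0.02. That was above -0.04 at 1 to under 2 kb, -0.08 at 2 to under 5 kb and -0.08 at 5 to under 10 kb. The deposited standard error was also larger for short loci, with a median of 0.81 under 1 kb and 0.48 at 10 kb and over in the authors' deposited table. The part of read counting on short loci in this order was not tested.

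**Figure D4:**
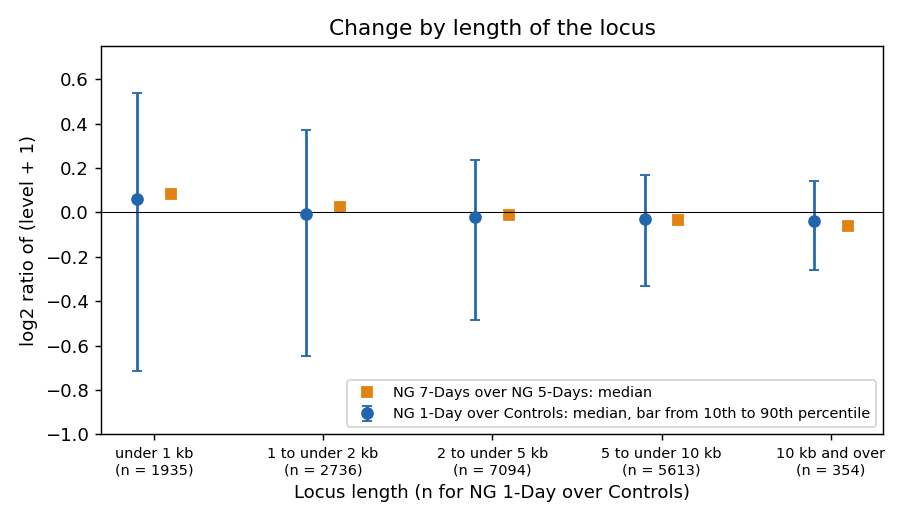
Change on the log2 scale of level + 1 (y axis) by class of locus length (x axis). Blue points are medians for NG 1-Day over Controls with bars from the 10th to the 90th percentile, and orange squares are medians for NG 7-Days over NG 5-Days; both sets of medians go from above 0 under 1 kb (0.06 and 0.08) to below 0 at 10 kb and over (-0.04 and -0.06).

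Transcripts that changed in the same direction sometimes lay side by side. Among 17720 adjacent pairs with a level of at least 1, both were at least 2-fold lower in 59 pairs, both higher in 11, and 10 pairs had opposite directions. The next transcript was also 2-fold lower after 9.26% of the 637 lower ones, where 3.59% of all were lower, and also 2-fold higher after 9.65% of the 114 higher ones, where 0.643% of all were. Most of the higher pairs came from 1 run on chromosome 7, described next: without its 8 transcripts 4 such pairs remained, after 3.77% of 106. Without pairs whose loci overlap, 55 and 10 pairs remained. Changes of neighbours had a Pearson correlation of 0.104 over all 17720 pairs, which share libraries. Of these pairs 592 have overlapping loci, and whether they share reads is not known here.

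The longest run was of increases, and held 8 neighbours on chromosome 7 between 45030960 and 45054399, a span of 23.4 kb. All are short loci, of 462 to 746 bases, and their levels were from 11.5 to 204 in Controls and from 45.1 to 643 in NG 1-Day. Every one of the 8 was higher on day 1 than in the other 3 conditions and lowest in NG 5-Days. Their summed level went from 525 in Controls to 1436 in NG 1-Day, a 2.73-fold increase, and was 158 and 300.3 later. The member with the highest level, 45053844 to 45054399, went from 204 to 643 and was at 46.9 and 100.1 later.

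None of the 8 passed the authors' test, and 7 have an unadjusted p under 0.05 in the authors' deposited table. The run was chosen by 2-fold changes in this same comparison, which favours small p-values, so those p-values are not separate evidence. In the authors' deposited table, 3 of the 8 were tested, with adjusted p-values of 0.0973, 0.202 and 0.518, and 5 were not. When the untested lines were adjusted along, 2 passed. One more transcript lies within the run and was at 0 in both conditions. The run ends sharply on one side: the transcript after it, a locus of 6568 bases, was at 17.8 in Controls and 16.8 in NG 1-Day. The one before it, of 669 bases, went from 66.4 to 131, just under 2-fold on the +1 scale. Whether the members are similar copies that share reads is not known here.

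**Figure D5:**
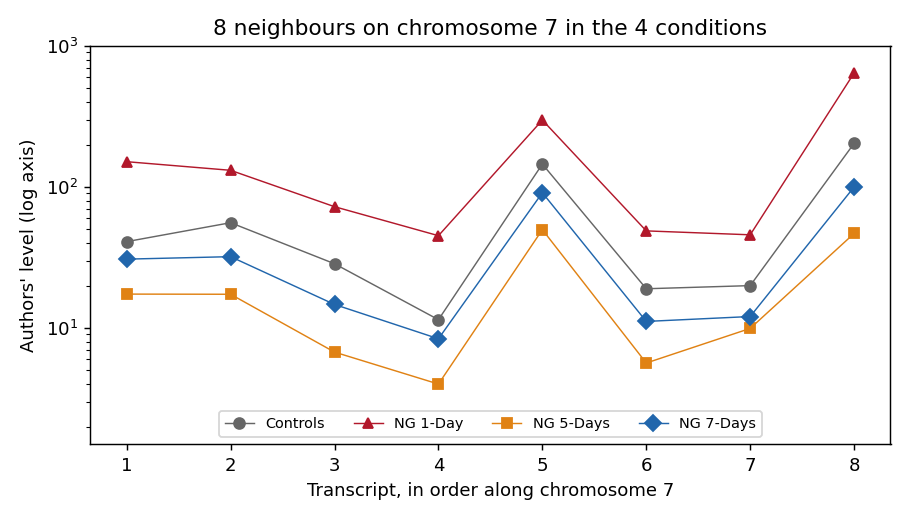
The authors' level (y axis, log axis) of the 8 neighbours on chromosome 7 in order along the chromosome (x axis) in the 4 conditions, with lines joining points of a condition. NG 1-Day lies above and NG 5-Days below the other conditions at each of the 8 transcripts.

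The remaining 8 runs of 3 or more, with 26 transcripts, were of decreases. On chromosome 1, 4229393 to 4253581, 4 neighbours fell, each of them called in the authors' deposited table, with adjusted p-values of 0.0476, 0.000364, 0.0234 and 0.00109. Their summed level was 31.2 in Controls and 1.34 on day 1, a 23.3-fold decrease, and was 12.7 and 79.1 later. Of these, 2 are listed at one and the same locus, 4229393 to 4239369, so reads may be split between them and they are not separate evidence.

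On chromosome 5, 1200300 to 1207110, 3 short loci of 497 to 660 bases fell, with adjusted p-values of 0.0451, 0.0258 and 0.0375 in the authors' deposited table. They went from 5.28, 6.63 and 5.40 in Controls to 0.205, 0.465 and 0.443 in NG 1-Day, and their summed level reached 68.2 in NG 7-Days from 17.3 in Controls. On chromosome 8, 29105447 to 29126305, the summed level of 3 neighbours went from 89.0 to 1.35, a 65.9-fold decrease, and was 30.9 and 271 later. Here too 2 of the members are listed at one locus, 29105447 to 29107825, and are not separate evidence. That run was not called: 1 of its members was tested and 2 were not, and those 2 passed when untested lines were adjusted along. On chromosome 4, 55945439 to 55958685, 4 neighbours of 1109 to 1148 bases went together from a summed level of 84.1 to 31.6. None was called, with all 4 at an unadjusted p under 0.05 in the authors' deposited table. Like the other runs, this one was chosen by changes in the same comparison, so its p-values are not separate evidence.

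After day 1 the decreased and the increased transcripts took different courses. The 637 that were 2-fold lower had a median level of 5.69 in Controls, 1.04 on day 1, then 8.82 and 11.6 in NG 5-Days and NG 7-Days. The 114 that were 2-fold higher had medians of 5.68, 18.6, 3.58 and 5.26. Of the 637, 624 were above Controls in NG 7-Days, with a median ratio of Controls to NG 7-Days of 0.485 (interquartile range 0.405 to 0.559). Of the 114, 44 were above and 69 below, and the median ratio was 1.12 (0.793 to 1.46). These values are set against the same Controls level that chose the transcripts and so are given as a description.

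The comparison of NG 7-Days with NG 5-Days uses neither condition that chose the transcripts. Over all 19909 transcripts tested in it, the authors' deposited table has 502 that rose (2.52%) and 367 that fell (1.84%), and at mean levels of at least 5 in these conditions 2.05% rose and 2.45% fell. Of the 637 that were 2-fold lower on day 1, 321 were tested, of which 44 rose (13.7%) and 102 fell (31.8%) by the authors' deposited table. Of the 201 called falls, 97 were tested, and 11 rose and 51 fell (52.6%). Of the 114 that were 2-fold higher, 93 were tested, and 6 rose and 1 fell by that table. Transcripts that were low on day 1 were called later in both directions at several times the share of all tested transcripts. Controls tended to lie between NG 1-Day and NG 7-Days, as given above, so a choice by Controls and NG 1-Day can also be a choice by NG 7-Days. The later calls are therefore not independent of the choice and are given as a description.

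Tested transcripts give an incomplete view of the later course of the decreased ones. The 316 of the 637 that were not tested in the later comparison moved mostly upward, with 197 at least 2-fold higher and 13 at least 2-fold lower, NG 7-Days over NG 5-Days. The median level of the 316 was 9.33 in Controls, 1.79 on day 1, then 8.41 and 21.7 in the later conditions. The 321 that were tested had medians of 3.72, 0.606, 9.28 and 6.39. In the first group the level was thus highest in NG 7-Days, and in the second in NG 5-Days. The 5 called rises were all tested in the later comparison, and none was called there, with 2 at an unadjusted p under 0.05 in the authors' deposited table.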

How the data were processed

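RNA sequencing libraries of 11 samples are listed in the labels (3 DMSO, and 3, 2 and 3 NG at days 1, 4 and 7); the values come from 1 table of the whole series. Per the file headers it is a Cuffdiff differential expression table with 6 comparisons between 4 conditions, and its lines hold 2 levels, their log2 fold change, a test statistic, and the p-value and q-value the authors deposited. Unit of the levels, aligner, genome build, filters and depth: not given in the sources used here. Recomputed Benjamini-Hochberg values over the 118862 tested lines of all 6 comparisons matched the deposited q-values to within 3.32e-06. The levels of 1 transcript in use differed between lines, and those of its own comparison were kept.

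With no value per library, no edgeR or limma fit was possible, and the test is the authors'. The standard error is the log2 fold change divided by the statistic. Computed here, with Python 3.11.15, pandas 2.3.3, numpy 2.4.6 and scipy 1.17.1, were changes on the log2(level + 1) scale, class medians, counts and runs of at least 3 neighbours. Calculations were tested on simulated data. Coordinates are as deposited, and NG 5-Days was not equated with day 4. Named by identifier were the 2 largest called rises and falls; by position, the called rises, the extremes of each level class from 5 upward and members of runs of neighbours. Runs other than the longest, and the next decrease after the one listed at 0, were chosen after their values were seen. Members, classes and rules were chosen with earlier results of these data known. Nothing says that libraries came from separate tubers.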

Additional observations from a re-analysis of the deposited data

How the results depend on the processing

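No paired analysis was possible because the table has no value per library; leaving out libraries in turn was not run either. Of 70 alternatives for 17 results, 37 were graded as unmoved, a loose grading for counts. It took 267 called falls with untested lines adjusted along, against 201, as unmoved. The same holds for 42 adjacent lower pairs among lines marked as tested, against 59. No single value changed sign, but 2 orders turned. With a pseudocount of 5 or with classes by later levels, the 2-fold lower share at 1 to under 5 was below that at 20 to under 100. With a pseudocount of 5, adjacent higher pairs (9) outnumbered lower ones (8). The 201 called falls became 82 when adjusted alone, 104 at an adjusted p under 0.01, 53 at a level of at least 1 in both conditions and 96 at 5 in the higher; the 5 rises became 0 when adjusted alone, 2 at 0.01 and 20 with untested lines adjusted along. With pseudocounts of 0.1 and 5, the 2-fold decreases numbered 1731 and 194, the increases 458 and 50, adjacent lower pairs 124 and 8, and the median change was -0.0336 and -0.0054; adjacent higher pairs numbered 24 with 0.1, and 4 without the chromosome 7 run, a setting added after seeing the data. Among lines marked as tested, increases numbered 60, adjacent higher pairs 3, the median change was -0.0220 and the 2-fold lower share at 20 to under 100 was 0.733%. At a level of at least 1 in both conditions, 325 decreases remained. The 2-fold lower share at 1 to under 5 was 9.94% and 0.474% with pseudocounts of 0.1 and 5, 5.26% with classes by Controls and 2.18% by later levels; at 20 to under 100 it was 1.44% with a pseudocount of 5, 2.26% by Controls and 3.94% by later levels. The gap between short and long loci was 0.0608 with a pseudocount of 5, and 0.0392 and 0.165 within the level classes 1 to under 5 and 20 to under 100. At an adjusted p under 0.01, later falls among the called falls numbered 22 and among the 2-fold lower 45. Which transcripts are counted, or how low levels are weighted, sets these numbers by construction. Median centring moved no value by that grading.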
